A study of Mus musculus with 3 samples.

Results

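The cytosolic ribosomal protein genes were examined in mouse multipotent progenitors (MPPs) that had lost, or still carried, the transcription factor gene Mef2c. Probes were taken by gene name, as Rpl or Rps followed by a number together with Rplp0, Rplp1, Rplp2 and Rpsa, with the Rps6k kinases left out. The probe with the highest mean log2 signal over the 6 libraries stood for its gene. This gave 80 genes, 48 of the large and 32 of the small subunit, among 22225 genes tested and measured by 134 of the 41174 probes.

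Each of 3 two-colour Agilent arrays carried 1 mutant and 1 control library, which makes 3 libraries of each genotype. Mutant mice were Mx1-cre+ Mef2cfl/fl and control mice were Mef2cfl/fl without Cre, and both received 250 µg of poly(I:C) on each of 4 days, an RNA analog that switches on Mx1-Cre in blood cells and other tissues. Marrow was taken 2 days after the last injection, and 15000 cells positive for c-kit and Sca-1 were sorted per sample, without the lineage markers CD3, B220, Ter119, Mac-1 and Gr-1. Messenger RNA was copied to cDNA and amplified by PCR, and 250 ng of it was labelled with Cy3 for the mutant and with Cy5 for the control on every array. The labels do not give the ages of the mice, the floxed part of the gene, or whether each replicate is a different animal, and p-values here reflect only how far these 3 arrays differ. An effect of Cre, or of the dyes, cannot be told apart from the genotype.

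Ribosomes are built from ribosomal RNA and one copy of most of these proteins, and the large subunit forms peptide bonds while the small subunit reads the message. The messages of ribosomal proteins begin with a run of pyrimidines, the terminal oligopyrimidine (TOP) motif, through which mTOR signalling controls their translation. Blood formation is known to be sensitive to the supply of these proteins: mutations in several of them cause Diamond-Blackfan anemia, a failure of red cell production.

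Start-site sequences are shown for genes from the low and high ends of the measured range, with Rps6 from between them, because the pyrimidine run is the feature this family is known for. The RefSeq promoter table (build GRCm38.p6) held 60 of the 80 genes. Each line gives 30 bases around the annotated start, 5′ to 3′ on the gene's strand, with capitals marking a C and at least 4 further C or T bases that begins within 5 bases of the start.
Rps24, chr14:24490663-24490692, plus strand: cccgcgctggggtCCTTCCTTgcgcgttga
Rps26, chr10:128626492-128626521, minus strand: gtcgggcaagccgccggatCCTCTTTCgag
Rps18, chr17:33955651-33955680, minus strand: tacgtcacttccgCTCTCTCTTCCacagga
Rps6, chr4:86857353-86857382, minus strand: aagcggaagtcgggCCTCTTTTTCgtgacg
Rplp2, chr7:141447636-141447665, plus strand: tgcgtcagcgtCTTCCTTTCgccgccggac
Rpl22l1, chr3:28805493-28805522, plus strand: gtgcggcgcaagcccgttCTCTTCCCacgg
Rps27l, chr9:66946071-66946100, plus strand: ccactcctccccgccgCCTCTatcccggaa
Rpl22, chr4:152324421-152324450, plus strand: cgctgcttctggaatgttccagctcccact
Rpl9, chr5:65391417-65391446, minus strand: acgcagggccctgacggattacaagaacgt
Rps3a, chr3:86142654-86142683, minus strand: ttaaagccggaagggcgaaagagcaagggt
The first 7 windows hold such a run, a larger share than in the family as a whole, and those of Rpl22, Rpl9 and Rps3a do not hold one at the annotated start.

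Among the 60 genes with a promoter sequence, 28 (46.7%) had the run within 5 bases of the start, against 5718 of 27025 genes in the whole table (21.2%). With the run required to begin exactly at the start, the shares were 21.7% and 3.01%. The run was found in 16 of 36 large subunit genes and 12 of 24 small subunit genes. In the 250 bases before the start, searched on both strands, CCGGAAG stood in 30% of the members and 7.83% of all genes, and GCCATNTT in 15% and 4.49%. TATAAA stood in 6.67% of the members and 14.3% of all genes. GGGCGG stood in 50% and 35.4%. These matches describe letters in a window and not bound sites.

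All 80 genes were well above background in all 6 libraries, and no spot was saturated. Their median log2 signal was 15.9, which lay at the 99.5th percentile of all genes tested. A probe's brightness also depends on its own sequence, so levels are not compared between genes here. Of 80 standard ribosomal protein genes, 76 were found by name, 45 of 47 of the large and 31 of 33 of the small subunit, and the other 4 members were the paralogs Rpl3l, Rpl22l1, Rpl7l1 and Rps27l. RefSeq lists pseudogenes named after 62 of the 80 members, so part of a signal may come from near-identical copies. On a bulk array a change in the share of a cell type and a change in RNA per cell cannot be told apart.

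As labelled, 61 of the 80 ribosomal protein genes (76.3%, against 54.6% of all genes) had a lower mean signal in the Mef2c-deficient than in the control libraries, and no single gene passed the test. The median log2 ratio of mutant over control was -0.21 over the 80 genes, with array medians of -0.10, -0.37 and -0.25 (SD 0.14, n = 3), while the median over all genes tested was -0.04. By limma with Benjamini-Hochberg adjustment, 0 of 80 members had an adjusted p under 0.05, as did 0 of all 22225 genes (0%), and the smallest adjusted p was 0.461. At an unadjusted p below 0.05, called nominally lower or higher from here on, 17 members were lower in the mutant (21.3%), against 5.32% of all genes, and 1 was higher (1.25%), against 4.81% of all genes. Without array 1 the count of lower members was 8 (10%, against 2.98% of all genes in that fit), and without array 2 it was 6 (7.5%, against 4.02%). The ratio was below 0 on all 3 arrays for 37 members, or 46.3% against 20.3% of all genes, and above 0 on all 3 arrays for 3 members, or 3.75% against 15.2%. All 3 mutant libraries lay below all 3 control libraries for 35 members (43.8%), against 11.8% of all genes, and above them for 2 members (2.5%), against 7.21%. Bright genes were also compared, with a mean log2 signal of 16 or more, a line drawn after the values were seen. There, the mutant libraries lay below the controls for 75% of 36 members and 62.1% of 66 other genes. The ratio was below 0 on all 3 arrays for 77.8% of these members and 63.6% of these other genes.

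These counts, the size of the median and the signs of some genes depend on the direction of array 2. Set against the scanner's Cy5/Cy3 ratios, the authors' deposited ratios correlated at -0.947 and -0.939 across spots on arrays 1 and 3 but at 0.935 on array 2. The labels name the same dyes for all 3 arrays, and whether array 2 was a dye swap is not known. With array 2 turned, the median of the 80 genes was -0.03, with 0 members nominally lower and 2 nominally higher, Rplp2 and Rps4x. In that fit 1.39% of all genes were nominally lower and 1.51% higher. On arrays 1 and 3 alone, the median was -0.22. Across the 80 members the ratios of arrays 1 and 2, as labelled, correlated at 0.59, those of arrays 1 and 3 at 0.38 and those of arrays 2 and 3 at 0.11 (Pearson), and all arrays carry the same dyes per the labels.

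**Figure D1:**
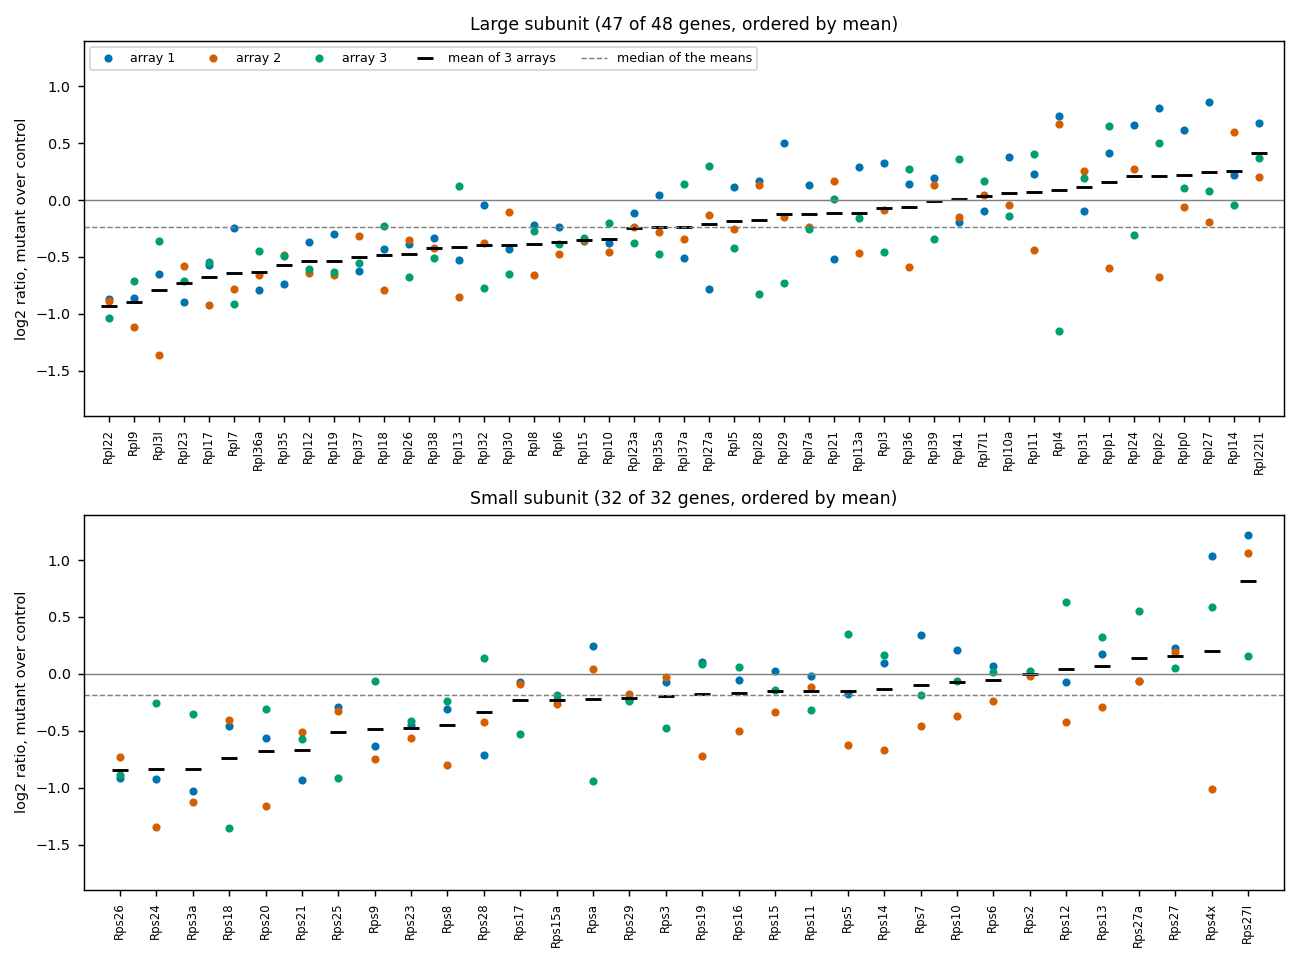
The log2 ratio of mutant over control is shown for 47 of the 48 large subunit genes (top) and the 32 small subunit genes (bottom), each ordered by its mean. Points are the 3 arrays, black bars the means, and the dashed line the median of the means over all genes of the subunit, at -0.24 for the large and -0.18 for the small subunit.

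The large and small subunits were set side by side. The large subunit had a median log2 ratio of -0.24, with -0.20, -0.35 and -0.35 on arrays 1, 2 and 3, and the small subunit -0.18, with -0.07, -0.41 and -0.16. The difference of small minus large was 0.13, -0.07 and 0.19 on the 3 arrays, so its sign was not the same on all of them, and it was 0.05 for the means. Nominally, 11 large subunit genes were lower and 0 higher, and 6 small subunit genes were lower and 1 higher. The lower genes were 22.9% of the large and 18.75% of the small subunit, against 5.32% of all genes. The medians were -0.05 and 0.04 with array 2 turned.

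In the large subunit, Rpl22 is an RNA-binding protein that is not needed for translation as such but is known for its role in the development of T cells. Its log2 signal was 17.35, 17.20 and 17.06 in the control libraries of arrays 1 to 3 and 16.48, 16.31 and 16.02 in the mutant libraries, without overlap and with nearly the same step on every array. The mean log2 ratio was -0.93 ± 0.09 (limma, adjusted p = 0.461), and -0.34 with array 2 turned. A second, dimmer probe of Rpl22 gave 0.91, -0.46 and 1.11, with a mean of 0.52. The means of the probes lay on opposite sides of 0, though both probes were below 0 on array 2. The range of 1.45 between these means was the widest of any member.

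Rpl9 had 16.89, 16.77 and 16.70 in the controls and 16.04, 15.66 and 15.99 in the mutants. The groups did not overlap, and the mean log2 ratio was -0.89 ± 0.21 (SD, n = 3), or -0.15 with array 2 turned. Besides Rpl22 and Rpl9, the nominally lower large subunit genes included Rpl3l, Rpl23, Rpl17, Rpl7, Rpl36a, Rpl35, Rpl12 and Rpl19, with means from -0.79 to -0.53. Rpl26, which lies by the exit of the peptide tunnel and had the brightest probe of the family, was not nominally lower, although its libraries did not overlap, and it had a mean log2 ratio of -0.47 ± 0.18.

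Rpl5 and Rpl11 form, with the 5S RNA, the particle that binds Mdm2 and so restrains its action on p53 when ribosome assembly fails. Rpl5 had log2 ratios of 0.11, -0.25 and -0.42, and Rpl11 had 0.23, -0.44 and 0.41. Both crossed 0 between arrays. Rpl10, which joins the large subunit late, ran at -0.38, -0.45 and -0.20, below 0 on every array, and Rpl39, a small protein of the tunnel, had a mean of -0.005 ± 0.29.

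The acidic stalk, Rplp0 with Rplp1 and Rplp2, recruits elongation factors to the ribosome. Its genes were among the higher members: the mean log2 ratio was 0.22 ± 0.35 for Rplp0, 0.16 ± 0.66 for Rplp1 and 0.21 ± 0.79 for Rplp2. Rplp2 had 14.21, 13.10 and 13.76 in the mutants and 13.40, 13.78 and 13.26 in the controls, so the groups overlapped. For Rplp1 and Rplp2 array 2 alone was below 0, and Rplp0 had 0.62, -0.06 and 0.11, with array 1 the highest. A brighter probe that the file names Arbp, an older name of Rplp0, lay outside the naming rule and had -0.08, -0.76 and -0.06, with a mean of -0.30 ± 0.39. Rpl27 and Rpl14 completed the high end of the large subunit at 0.25 ± 0.55 and 0.26 ± 0.32.

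In the small subunit the lowest gene was Rps26, which lies at the exit of the mRNA channel and is mutated in some cases of Diamond-Blackfan anemia. Its log2 signal was 16.88, 16.70 and 16.89 in the controls and 15.97, 15.97 and 16.001 in the mutants. The libraries were tight within each group and did not overlap, and the mean log2 ratio was -0.84 ± 0.10 (SD, n = 3), with an adjusted p of 0.461 by limma, and -0.36 with array 2 turned.

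Rps24, another Diamond-Blackfan gene, had 16.92, 16.99 and 16.74 in the controls and 15.99, 15.65 and 16.48 in the mutants. Its mean was -0.84 ± 0.55, with the smallest step on array 3, and its other probes gave -0.27 and 0.18. Turning array 2 moved the mean to 0.055. Rps3a (now Rps3a1) had a mean of -0.84 ± 0.42, and its second probe gave -0.90.

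Rps18, a protein of the head of the small subunit, had ratios of -0.46, -0.41 and -1.36, so array 3 set much of its mean of -0.74 ± 0.54, and its other probes gave -0.24 and -0.19. Rps20 had a mean of -0.68 ± 0.44, but its second probe gave 0.53. Rps21 had -0.93, -0.51 and -0.57, while its other probes gave means of -0.097 and -0.17. These 6 genes were the nominally lower members of the small subunit.

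Rps6, the S6 kinase substrate downstream of mTOR, had 16.30, 16.54 and 16.71 in the controls and 16.37, 16.30 and 16.73 in the mutants. The groups overlapped, and its mean log2 ratio was -0.05 ± 0.16. Rps19, the gene most often mutated in Diamond-Blackfan anemia, had 0.10, -0.72 and 0.09. Rps14, whose loss of one copy is linked to the anemia of the 5q- syndrome, had 0.10, -0.67 and 0.17. In both genes array 2 alone was below 0. Rpsa, which also serves as a laminin receptor, had 0.24, 0.04 and -0.94, with array 3 alone below 0.

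The 19 members known as Diamond-Blackfan genes were read as a group beside the rest. Their median log2 ratio was -0.23, with 3 nominally lower (15.8%), and that of the other 61 members was -0.19, with 14 nominally lower (23.0%). Over all genes 5.32% were nominally lower.

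**Figure D2:**
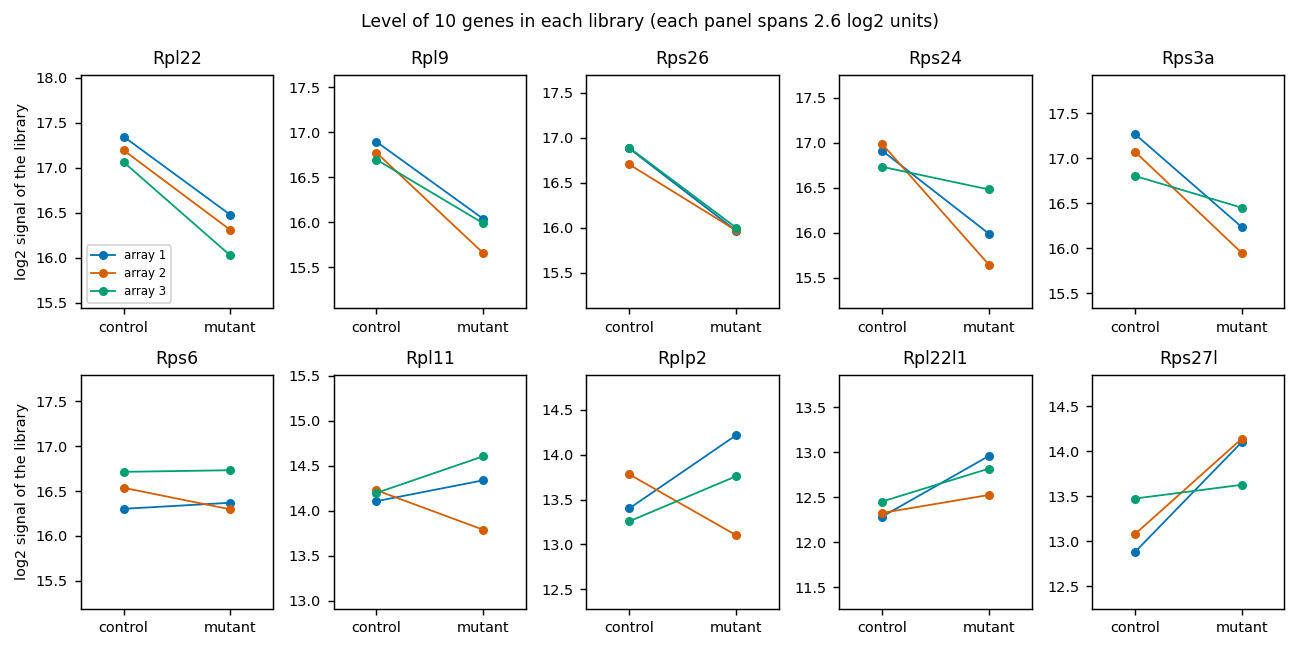
The log2 signal of 10 ribosomal protein genes is shown in the control and mutant library of each array, with lines joining the libraries of 1 array and every panel spanning the same range. Rpl22, Rpl9, Rps26, Rps24 and Rps3a were lower in all 3 mutant libraries, Rps6, Rpl11 and Rplp2 overlapped, and Rpl22l1 and Rps27l were higher in all 3 mutant libraries.

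The 2 highest members were paralogs. Rps27l, a p53-responsive relative of Rps27, was the only nominally higher member. It had 12.88, 13.08 and 13.47 in the controls and 14.10, 14.14 and 13.63 in the mutants, and these groups did not overlap. The mean log2 ratio was 0.81 ± 0.58 (limma, adjusted p = 0.468), and 0.10 with array 2 turned.

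Rpl22l1, the paralog of Rpl22 and known to be raised in mice that lack it, had 12.29, 12.33 and 12.45 in the controls and 12.96, 12.53 and 12.82 in the mutants. Its mean log2 ratio was 0.41 ± 0.24, without overlap, and its other probe gave 0.01. The log2 ratio of Rpl22l1 minus that of Rpl22 was 1.55, 1.09 and 1.41 on the 3 arrays. The dimmer Rpl22 probe had 0.91, -0.46 and 1.11 (mean 0.52), and Rpl22l1 had 0.68, 0.20 and 0.37. Against that probe the paralog lay above its parent on array 2 alone, and not for the means.

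Rps27l minus Rps27 gave 0.995, 0.87 and 0.099, and Rpl7l1 minus Rpl7 gave 0.15, 0.82 and 1.08. Rpl3l, the muscle form of Rpl3, was the dimmest member, at a mean log2 signal of 8.25. It ran the other way, at -0.98, -1.27 and 0.089 relative to Rpl3.

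Most of the lowest ratios lay among the brightest spots. The line of 16 used here was drawn after the values were seen. Of the 36 members with a mean log2 signal of 16 or more, 34 had a ratio below 0 and 15 (41.7%) were nominally lower, with a median of -0.48. Of the 44 dimmer members, 27 (61.4%) were below 0, 2 (4.55%) were nominally lower and 1 (2.27%) higher, with a median of -0.11. The shares of all genes tested were 54.6% below 0, 5.32% nominally lower and 4.81% higher. Within the bright class the large and small subunit medians were -0.50 and -0.48. Among the 20 members with the lowest ratios 18 lay at or above 16, and among the 20 with the highest ratios 2 did. Across the 80 genes the correlation of signal and mean ratio was -0.47 (Pearson) and -0.69 (Spearman), and -0.68 and -0.75 without Rpl3l. The genes share libraries and arrays and are not independent.

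Other genes with spots as bright also lay mostly below 0. The 66 other genes at or above 16 had a median log2 ratio of -0.45, with -0.58, -0.38 and -0.46 on the 3 arrays, 61 of them (92.4%) were below 0, and 23 (34.8%) were nominally lower. The 271 other genes between 15 and 16 had a median of -0.10, and the other genes below 15 had -0.04. With a narrower loess span of 0.1 in place of 0.3, chosen after seeing the data, the medians at or above 16 were -0.22 for the members and -0.21 for the others, the median of all 80 members was -0.06, and 5 members were nominally lower, among them Rpl22, Rpl3l, Rpl9 and Rps26. With the scanner's processed signals the same 5 members were nominally lower. These 5 are 6.25% of the members, against 5.16% of all genes with the narrower span and 6.97% with the processed signals, so the members' share lay near that of all genes. The part of spot brightness in the ratios of single genes was not tested.

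**Figure D3:**
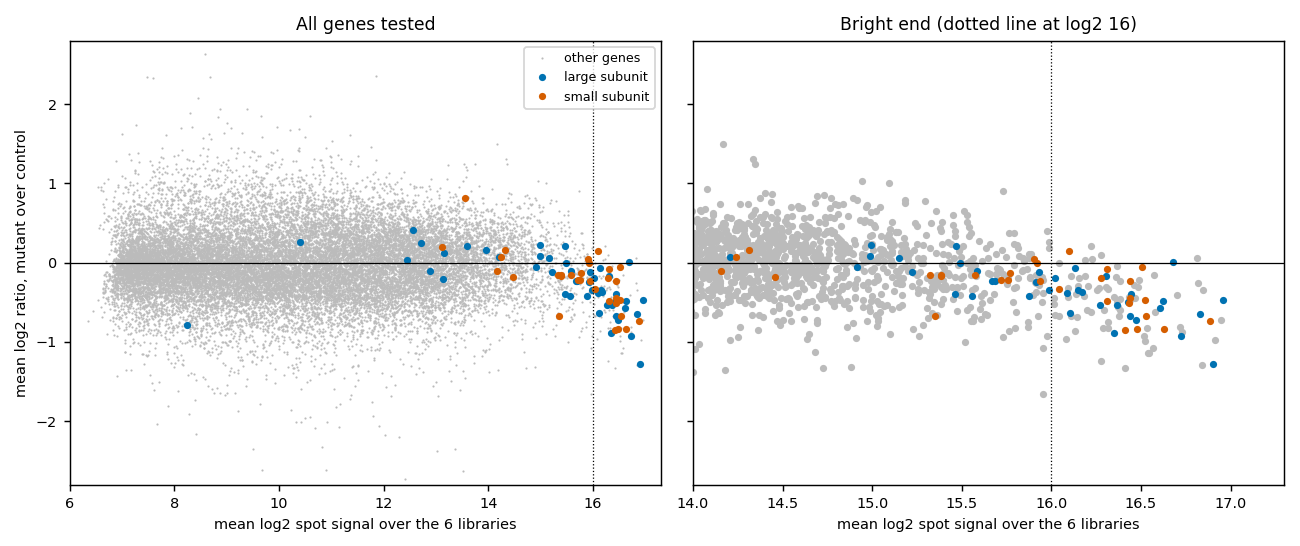
The mean log2 ratio of mutant over control is plotted against the mean log2 spot signal over the 6 libraries, for all genes tested (left) and for the bright end (right), with large subunit genes in blue, small subunit genes in orange and other genes in grey. To the right of the dotted line at 16, the 36 ribosomal protein genes had a median of -0.48 and the 66 other genes -0.45.

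Other probes of the same genes read the same libraries on the same arrays, so they are not an independent repeat. Of 40 members with more than 1 kept probe, 28 (70%) had a mean over the other probes of the same sign as the tested probe. No baseline was set for this share, and 76.3% of the tested probes of all 80 members lay below 0. Of the 11 nominally lower genes that had another probe, 9 had a mean over the other probes below 0, though single probes of Rps24 and Rpl7 lay above 0, at 0.18 and 0.049. The range between probes had a median of 0.30, and the genes with the widest ranges were Rpl22, Rps20 and Rpl37, whose probes gave -0.50 and 0.61.

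**Figure D4:**
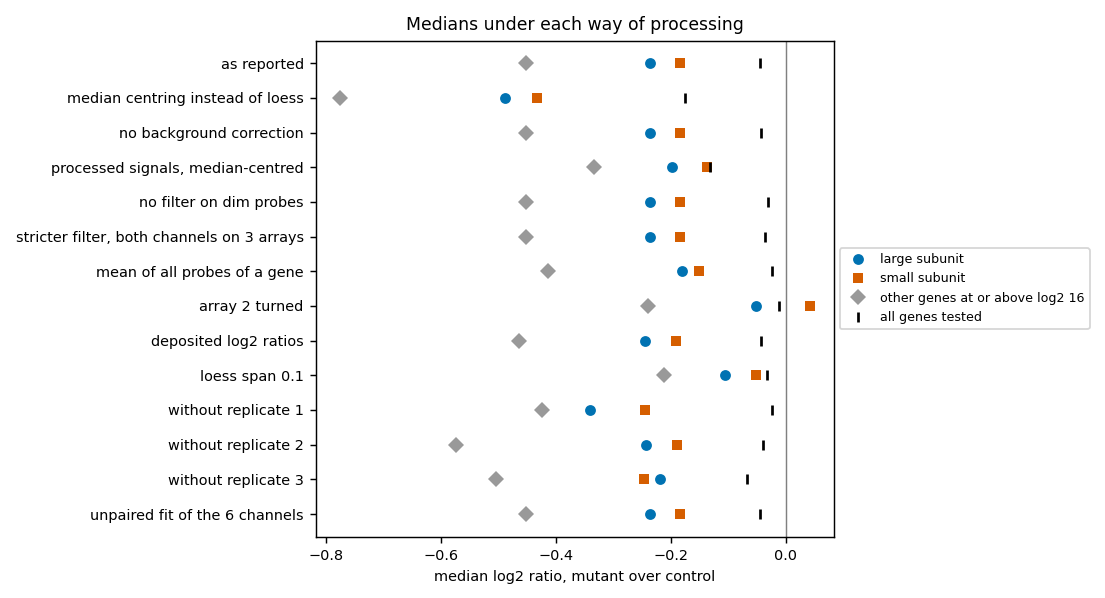
The median log2 ratio of mutant over control is shown for the large subunit, the small subunit, other genes at or above a log2 signal of 16 and all genes tested, under each way of processing the arrays. The large subunit lay at -0.24 as reported, -0.49 with median centring, -0.11 with a loess span of 0.1 and -0.05 with array 2 turned.

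The medians of members with and without each promoter feature were set side by side. Members with the pyrimidine run near the start had a median log2 ratio of -0.22 (28 genes) and those without it -0.19 (32 genes). Members with CCGGAAG had -0.39 (18 genes) and the others -0.18 (42 genes), and members with GGGCGG had -0.12 (30 genes) and the others -0.35 (30 genes). No test was made of these differences.

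Genes that act with the ribosomal proteins were read from fixed lists. Over all genes tested, 54.6% were below 0, 5.32% were nominally lower and 4.81% nominally higher. Of the 4 ribosomal genes that the naming rule missed, 1 was nominally higher and the median was -0.16. Among them, Fau had -0.38 ± 0.26, Rack1 -0.38 and Rpl36al 0.58 ± 0.23, the last being nominally higher. Of 15 other TOP messages, which code for translation factors and for abundant proteins such as Tpt1 and Npm1, 10 were below 0 and 1 was nominally lower, with a median of -0.18. That one was Eef1g, a subunit of elongation factor 1, with 17.09, 16.93 and 16.88 in the controls and 16.38, 15.96 and 16.09 in the mutants, a mean log2 ratio of -0.83 ± 0.14. Eef1a1, which delivers aminoacyl-tRNA, had -0.59 ± 1.07, with array 3 far below the others.

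The 26 genes of ribosome biogenesis, which process ribosomal RNA and assemble subunits, lay on the other side of 0. Their median log2 ratio was 0.29, with 0.43, 0.26 and 0.22 on the 3 arrays. Of the 26 genes, 21 were above 0, against 10084 of all 22225 genes. Nominally, 5 were higher and 0 lower, against 4.81% and 5.32% of all genes. The median was 0.11 with array 2 turned. Nop2, an rRNA methyltransferase, had 9.86, 10.24 and 9.95 in the controls and 11.83, 11.35 and 10.79 in the mutants, without overlap, and a mean log2 ratio of 1.31 ± 0.59 (limma, adjusted p = 0.461). The others were Bysl (0.91 ± 0.49), needed for small subunit maturation, Lsg1 (0.81 ± 0.65), a GTPase of large subunit maturation, Rrp12 (0.55 ± 0.09) and the snoRNP protein Nhp2 (0.54 ± 0.22). Turning array 2 moved Nop2 to 0.56 and Bysl to -0.041.

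Of the 11 RNA polymerase I genes 9 were above 0, with a median of 0.37 and 1 nominally higher, Taf1c of the promoter factor SL1 (0.60 ± 0.25). Polr1d had 0.53 ± 0.30. The 15 genes that control ribosomal protein synthesis, among them mTOR and Myc, had a median of 0.03, with 0 nominally higher and 1 lower, the Max partner Mxd4 (-0.73). Rheb, which activates mTOR, had 0.53 ± 0.28. The 6 genes of ribosome stress and p53 had a median of 0.03 with none nominally higher or lower. In that list the cell cycle inhibitor Cdkn1a had -0.92 ± 1.13 and Ccng1 -0.47. None of these genes had an adjusted p under 0.05 by limma. Over all genes, 10084 of 22225 were above 0, 4.81% were nominally higher and 5.32% lower.

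**Figure D5:**
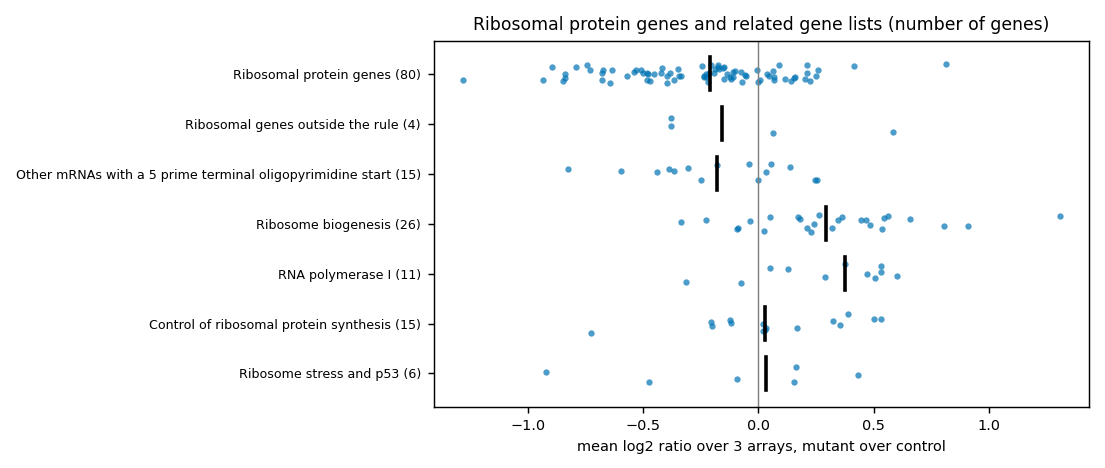
Each point is the mean log2 ratio of mutant over control of 1 gene over the 3 arrays, for the ribosomal protein genes and 6 related lists, with black bars at the medians. The median was -0.21 for the 80 ribosomal protein genes, 0.29 for the 26 genes of ribosome biogenesis and 0.37 for the 11 genes of RNA polymerase I.

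Markers of the sorted cells and of other cells were read on the same arrays. All 8 stem and progenitor markers were well above background in every library, with a median log2 ratio of -0.47. Procr (-1.57), Hlf (-1.21) and Flt3 (-1.15) were nominally lower and Ly6a (0.82), which encodes Sca-1, nominally higher. Of the 10 late neutrophil markers, 9 were well above background in every mutant library and 9 in every control library, with median signals of 10.37, 11.04 and 9.499 in the mutants and 12.43, 10.02 and 9.999 in the controls. They had array medians of -2.62, 0.16 and -0.995. Immediate early genes, which respond to handling, had -4.99, -0.58 and -0.05, with a median signal of 15.49 in control library 1 against 12.03 and 10.98 in the other controls. The median was -0.10 for 6 erythroid markers, of which Hba-a1 (-1.68) and Slc4a1 (-1.32) were nominally lower. It was 0.22 for macrophage, -0.22 for B lineage, -0.43 for T and NK and -0.40 for dendritic cell markers. The immediate early genes differed most on array 1. Without that array the members' median was -0.31, and 8 members were nominally lower (10%, against 2.98% of all genes in that fit) in place of 17. The part of other cells or of handling in the ribosomal protein ratios was not tested. Mef2c itself had 0.08, 0.10 and -0.96, a mean of -0.26 ± 0.61 (limma, adjusted p = 0.741). Its other probe was dim, at a mean log2 signal of 7.07, and well above background in 2 mutant libraries and 1 control library. That dim probe gave 1.07, 0.22 and 0.28, with a mean of 0.52. Since the floxed part is not stated, a probe outside it checks nothing about the labels.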

How the data were processed

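The authors deposited 1 scanner table per array with linear spot intensity, made by Feature Extraction 9.5.1.1 (Agilent) per the file headers. Per the file headers these tables also give processed signals and the log10 Cy5/Cy3 ratio. The authors' own log2 ratios came as a separate table. For software, the submitters' processing notes list limma without a version.

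Mean foreground and median background intensities were corrected with normexp (offset 50) and normalized by loess (span 0.3) in limma 3.58.1 under R 4.3.3. Control spots had weight 0. Outlier-marked spots were left out (300, 331 and 252 on arrays 1, 2 and 3). Levels of single libraries were also normalized between arrays by Aquantile. Probes were kept (32911 of 41174) where 1 channel was well above background on 2 arrays or more. Per channel, 73.4% to 80.4% of probes met that level, and the number of arrays limits the precision. Ratios were tested against 0 with lmFit and eBayes and Benjamini-Hochberg adjustment at 0.05. The arrays shared 1 slide per the file headers, so no slide block could be fitted.

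The members and lists were chosen with earlier results of these data known. Named genes were Mef2c, the 6 lowest, 6 highest and 3 brightest members, 12 fixed members, paralogs with their parents, the 3 with the widest probe range, and up to 4 genes of each list. Others were named after their values were seen. Values of 2 single genes are not reported here, though both stay in the counts and medians. The fit was tested on simulated data in which some genes were given a known difference. It recovered 36 of 66 such genes where the difference was 16-fold. At 4-fold it found 11 of 67, and at 2-fold it found 0 of 67. No gene was called wrongly in these runs. A gene that was not called here may therefore still differ by 2-fold, by 4-fold or even by 16-fold. Summaries and figures used Python 3.11.15.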

Additional observations from a re-analysis of the deposited data

How the results depend on the processing

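No gene of 22225 had an adjusted p under 0.05 under any alternative, and with limma 2252 had an unadjusted p under 0.05, called nominal here, as labelled. The count of 17 lower members became 31 with median centring, 11 with the mean of all probes, 5 with the scanner's processed signals, 5 with a loess span of 0.1 (chosen after seeing the data) and 0 with array 2 turned. Over all genes the shares nominally lower were 10.4%, 5.26%, 6.97%, 5.16% and 1.39% in these fits, against 38.75%, 13.75%, 6.25%, 6.25% and 0% of the members. The count of 1 higher member became 0 with the processed signals and 2 with array 2 turned. Over all genes 3.11% and 1.51% were nominally higher in these fits. The members' median of -0.21 became -0.48 with median centring, -0.060 with the span of 0.1 and -0.034 with array 2 turned. The large subunit median became -0.49, -0.11 and -0.052 under these, and the small subunit median -0.43 with median centring, -0.051 with the span of 0.1 and 0.043 with array 2 turned. The cause was not tested, except that turning an array reverses its own ratios. Median centring moved the median of all genes to -0.18 and split all genes into 2319 lower and 552 higher, against 1183 and 1069 as reported. Leaving out 1 array at a time gave 6 to 13 lower members (8 without array 1, 6 without array 2, 13 without array 3) and 0 to 2 higher. The lower members were 10%, 7.5% and 16.25% of the members, against 2.98%, 4.02% and 6.2% of all genes. Nominally higher were 2.85% to 6.1% of all genes. These fits gave a members' median of -0.31 to -0.22 and a large subunit median of -0.34 to -0.22. The small subunit median was -0.25 to -0.19 and small minus large -0.027 to 0.095. An unpaired fit had 25 lower members (31.25%, against 6.74% of all genes). No background correction, a looser or stricter filter, the unpaired fit, and the deposited ratios with the column of array 2 turned to the labels' direction turned none of 45 named genes. Read without that turn, the deposited ratios have the direction given here as array 2 turned.

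Single genes turned sign as follows. With median centring Rpl11 was at -0.057 and Rpl7l1 at -0.042. With processed signals Rpl11 was at -0.040, Rpl39 at 0.037, Rpl7l1 at -0.012 and Rps6 at 0.11. With the mean of probes Ccng1 was at 0.037, Mef2c at 0.13, Rpl37 at 0.058, Rps19 at 0.012 and Rps6 at 0.073. With array 2 turned Bysl was at -0.041, Fau at 0.067, Polr1d at -0.026, Rpl14 at -0.14, Rpl3l at 0.12, Rps14 at 0.31, Rps19 at 0.30, Rps20 at 0.097, Rps24 at 0.055 and Rps6 at 0.11. With the span of 0.1 Rpl3 was at 0.15, Rpl39 at 0.12, Rpl5 at 0.013, Rps14 at 0.032 and Rps6 at 0.22. Leaving out array 1, 2 or 3 turned 3, 3 and 8 of the 45 named genes. Their ranges over the arrays left out were -0.99 to 0.014 for Eef1a1, -0.44 to 0.094 for Mef2c, -0.10 to 0.32 for Rpl11, -0.057 to 0.47 for Rpl27, -0.27 to 0.12 for Rpl3, -0.10 to 0.16 for Rpl39, -0.025 to 0.11 for Rpl7l1, -0.091 to 0.53 for Rplp1, -0.087 to 0.66 for Rplp2, -0.28 to 0.13 for Rps14, -0.32 to 0.097 for Rps19, -0.11 to 0.043 for Rps6 and -0.45 to 0.14 for Rpsa.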
